A study of Mus musculus with 4 samples.

Results

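A small set of blood monocytes held transcripts of Gpnmb, C1qa, C1qb or Apoe, genes better known from tissue macrophages, and these cells are described here in 4 single-cell libraries taken before and during acute pancreatitis. They were chosen by a rule on measured counts. A cell had to have at most 10% mitochondrial UMIs (unique molecular identifiers, each standing for 1 captured RNA molecule), at least 5000 CPM of Lyz2 (counts scaled to the same total in each cell or sum), at least 1 UMI of Csf1r, at most 1 UMI of Cd3e, Cd3d and Cd3g together, at most 1 UMI of Cd79b, and less than 8% of its UMIs from S100a8 and S100a9. Lyz2 encodes lysozyme and Csf1r the receptor of the monocyte and macrophage growth factor CSF1, while the other genes of that step are markers of T cells, B cells and neutrophils. The cells that pass are called monocytes here, and 13399 of the 53380 cells in all were monocytes. Members are the 676 monocytes with at least 3 UMIs over the 4 marker genes Gpnmb, C1qa, C1qb and Apoe. They numbered 96, 102, 385 and 93 in the control, 12 h, 24 h and 96 h libraries, the order kept for values throughout.

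Each of the 4 groups was a single library of peripheral blood mononuclear cells, which the labels assign to wild-type C57BL/6J mice aged 6-8 weeks. The cells were separated on a Ficoll gradient and their RNA was captured from the 5′ end in droplets. The control library stands for 0 h. The other 3 were taken 12 h and 24 h (initial phase) and 96 h (recovery phase) after the start of 7 intraperitoneal injections of cerulein, a cholecystokinin analogue that overstimulates the acinar cells of the pancreas. The series' design text gives 168 h, not 96 h, for the last blood sample, so the last time is uncertain. The number of animals behind a library is not given in the sources used here, and with 1 library a group no difference below was tested. Every interval is a 95% interval for counting error alone, and a difference between times cannot be told apart from a difference between libraries.

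The libraries held 62481134 to 79516878 UMIs in 11663 to 14569 cells. The 16152 gene names include 28 with the prefix RT1-, used for rat histocompatibility genes, 1691 with AABR07 and 0 with the mouse prefix H2-, while 12518 match a mouse symbol. The labels give mice and the mm10 build, and which of the names and the labels is right was not tested. The barcode lists of 12 h and 24 h shared all 11663 barcodes, and the lists of the control library (4340 barcodes for 14569 cells) and of 24 h (11663 for 12588 cells) were too short to name the cells, so cells were taken from the matrices. No cell had the same counts as a cell of another library (0 cells). Each library was summed on its own, so the values of the control, 12 h and 96 h libraries are the same without the 24 h library.

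Blood monocytes are short-lived cells of the bone marrow lineage that patrol vessels or leave the blood, and some turn into macrophages once they are in tissue. Gpnmb is a membrane glycoprotein of late endosomes and lysosomes that is abundant in phagocytes loaded with lipid or debris. Apoe is the apolipoprotein that carries cholesterol out of macrophages, and C1qa and C1qb encode chains of C1q, the recognition part of the classical complement pathway, which is made mostly by tissue macrophages and dendritic cells. Class II molecules present peptides to CD4+ T cells and are characteristic of dendritic cells, B cells and macrophages.

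The members were in the main Gpnmb-holding monocytes, and C1q played almost no part in the selection. Gpnmb was found in 640 of 676 members, namely 85 of 96, 99 of 102, 377 of 385 and 79 of 93 by library. Its summed level was 348 CPM, 733 CPM, 463 CPM and 371 CPM in the same order, against 13.5 CPM, 18.0 CPM, 27.4 CPM and 23.8 CPM in the other monocytes. These levels were set by the rule and are given as a description.

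Apoe was the second marker by number of cells. It was found in 43, 11, 81 and 36 members (44.8%, 10.8%, 21.0% and 38.7%) of the control, 12 h, 24 h and 96 h libraries, and its level was 321 CPM, 86.7 CPM, 137 CPM and 257 CPM. The Apoe share was highest in the control library and lowest at 12 h, where all but a few members were chosen through Gpnmb. Members that held at least 3 UMIs of Apoe and 0 of Gpnmb numbered 11, 3, 8 and 14.

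C1q transcripts were held by a handful of cells. Members with at least 3 UMIs of C1qa and C1qb together numbered 1, 6, 2 and 0, and each of these 9 cells also held Gpnmb. At 12 h a cell with 46 C1qa and 44 C1qb UMIs and another with 32 and 35 carried most of the 101 C1qa and 99 C1qb UMIs of the library's members, and the same 2 cells held 30 and 29 UMIs of C1qc. At 96 h no UMI of C1qa or C1qb was found in a member. Leaving these cells out moved the values below little, for example Folr2 at 12 h from 33.2 to 30.4 times the level of the other monocytes.

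Set against cells that should lack these genes, Gpnmb stood far above background, and so did the share of cells with at least 3 marker UMIs. Apoe in the other monocytes did not. It stood at 2.90, 2.35, 2.26 and 3.95 CPM there, at 2.97, 1.55, 2.88 and 1.95 CPM in B-like cells and at 2.06, 2.625, 2.615 and 2.65 CPM in T-like cells. Of B-like cells 0.184%, 0.293%, 0.706% and 0.288% held a Gpnmb UMI, at median depths of 2781, 2939, 3038 and 3296 UMIs. Among the other monocytes 4.79%, 8.12%, 15.0% and 11.4% did, at median depths of 3666, 4116, 5613 and 5103 UMIs. At least 3 marker UMIs were found in 0 of 2178, 1 of 2729, 0 of 2268 and 0 of 3129 B-like cells. Of the deeper T-like cells, with medians of 5004, 5617, 6507 and 5636 UMIs, 0 of 2552, 1 of 1681, 2 of 2051 and 2 of 4767 held as many.

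Members were deep cells, which any rule that asks for 3 UMIs favours. Their median depth was 9244, 8782, 12510 and 10334 UMIs, more than 2 times that of the other monocytes in each library. For this reason each level was also set against other monocytes of like depth, drawn 1 to 1 on total UMIs, whose medians were 9264, 8788, 12515 and 10327 UMIs. Scrublet, a doublet caller run per library, marked 0, 1, 9 and 0 members, and 3 marker UMIs were the bare minimum in 29, 33, 104 and 27 of them. Just outside the cut, 37, 81, 209 and 72 monocytes held 2 marker UMIs, at median depths of 7034, 9083, 11442 and 9043 UMIs, against 9140, 7711, 11520 and 9473 UMIs for those at 3.

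The label macrophage-like fitted the marker genes only in part. Of 13 markers of resident tissue macrophages listed for this check, 7 are named in the files, and their summed level in members was 147, 219, 197 and 111 CPM against 283, 176, 173 and 186 CPM in the other monocytes, so it was lower in the control and 96 h libraries and higher at 12 h and 24 h. At like depth the sum was 146, 101, 127 and 105 CPM, and 4, 6, 5 and 4 of the 7 genes had a UMI in members. The sum joins genes that went opposite ways. Against all other monocytes Adgre1 was lower in members, with log2 ratios of -1.95, -1.03, -0.92 and -1.62. Folr2 was higher, with 3.44, 5.05, 2.65 and 1.86, and so was Spic, with 2.54, 1.70, 1.47 and 2.63. Mertk, a receptor for dying cells, had 0, 6, 17 and 0 UMIs in members. Cd68, a lysosomal protein of monocytes and macrophages alike, stood at 853, 989, 900 and 863 CPM against 897, 893, 890 and 893 CPM in the other monocytes. Markers of classical monocytes (6 of 10 named in the files) were near the level of like-depth cells, with 5843, 6686, 6664 and 7601 CPM against 6190, 6368, 8141 and 7421 CPM. The cells are therefore called by their rule here, and no new cell type name is given to them.

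Markers of neutrophils, NK cells and T cells were lower in members than in like-depth monocytes. Those of B cells were near them, and those of dendritic cells were higher in 3 libraries. The 5 acinar markers of the pancreas named in the files were at 0 UMIs in members of each library. Neutrophil markers stood at 221, 3318, 866 and 283 CPM in members and at 578, 12506, 2329 and 1097 CPM in like-depth monocytes, a list that holds S100a8 and S100a9, which the rule used. T cell markers, among them the Cd3 genes that the rule used, stood at 64.2, 118, 180.3 and 98.1 CPM in members. At like depth they stood at 138, 173, 213 and 170.5 CPM. B cell markers stood at 50.9, 58.4, 39.1 and 44.1 CPM in members (like depth 50, 52.6, 34.1 and 34.1 CPM). Platelet, erythroid and dividing cell markers stood at 6.01 to 106 CPM each in members. NK cell markers stood at 110, 165, 62.5 and 47.0 CPM in members against 292, 322, 133 and 220 CPM at like depth. In all other monocytes they stood at 73.5, 139, 66.6 and 104 CPM, below members in the control and 12 h libraries. Of the 10 dendritic cell markers, 3, 3, 4 and 4 had a UMI in members, and Clec10a made up nearly all of their sum. This sum was 312, 97.4, 202 and 202 CPM in members, 39.6, 20.1, 79.7 and 55.8 CPM in all other monocytes and 196, 37.0, 203 and 162 CPM at like depth, and its part in the class II difference was not tested.

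Members made up a larger share of the monocytes in the 24 h library than in the control library. The share was 2.53% (95% interval 2.06-3.09%), 3.14% (2.56-3.79%), 8.62% (7.81-9.48%) and 4.92% (3.98-5.99%) by library. Divided by the control share, the 12 h, 24 h and 96 h values gave ratios of 1.24 (0.940-1.63), 3.40 (2.73-4.24) and 1.94 (1.47-2.57). The 24 h interval stands apart from the other 3, and the 12 h interval overlaps that of the control library. The 3 ratios share the control library.

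Depth moved the size of this difference. Monocytes were deeper at 24 h, and when each was thinned to 3000 UMIs, leaving out 774, 308, 257 and 105 shallower ones, at least 2 marker UMIs were held by 2.06%, 2.41%, 4.59% and 2.97%. The ratio to the control library was then 2.23 (1.68-2.96) at 24 h and 1.44 (1.0-2.07) at 96 h. With at least 3 marker UMIs after thinning the 12 h ratio was 0.924 (0.556-1.54). Of the cells with at most 10% mitochondrial UMIs, whatever their type, members made up 0.795% (0.644-0.970%), 0.925%, 3.39% and 0.686% (0.554-0.839%), and on that base the intervals of the control and 96 h libraries overlap.

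**Figure D1:**
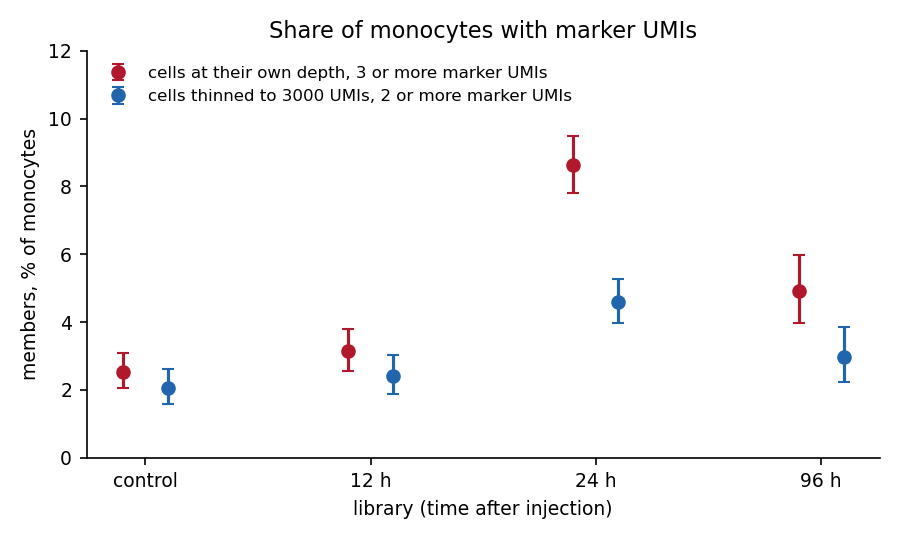
Share of monocytes (%) that held marker UMIs in each library, at the cells' own depth with 3 or more marker UMIs (red) and after thinning to 3000 UMIs with 2 or more (blue); bars are exact 95% binomial intervals. The 24 h library is the highest on both scales, at 8.62% and 4.59%.

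Genes outside the rule were compared by summing UMIs over the members and over the other monocytes of the same library, scaling both sums to CPM, and calling a gene apart where the ratio was at least 1.5 (or its inverse) and its interval left out 1. Genes needed 20 UMIs over both sums. Against all other monocytes 7.87%, 5.20%, 4.55% and 4.55% of genes stood higher in members of the control, 12 h, 24 h and 96 h libraries, and 15.0%, 6.91%, 7.07% and 9.33% lower. With median-of-ratios scaling, which moved all genes by -0.20, -0.10, -0.10 and -0.13 on the log2 scale, the higher genes made up 56.8%, 58.7%, 54.9% and 51.6% of those apart in place of 34.5%, 43.0%, 39.2% and 32.8%. Against monocytes of like depth 2.08%, 4.66%, 3.05% and 2.35% of genes were higher and 4.59%, 4.82%, 3.02% and 3.39% lower. The counts of gene lists below are to be read beside the shares of the same reference. The like-depth sums also held fewer UMIs, 900335 against 15504565 in the control library, which widens the intervals. The smaller share of genes apart therefore cannot be set down to matched depth alone.

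Few genes stood on the same side in all 4 libraries. Against all other monocytes 102 of 8802 genes (1.16%) were higher in each library and 186 (2.11%) lower. Against those of like depth 9 of 5330 genes (0.169%) were higher in each library and 10 (0.188%) lower. Both references gave 7 higher genes, Folr2, Tmem176b, Tmem176a, Id3, Spic, Cd74 and RT1-Da, and 4 lower genes, Ptgir, Gadd45a, S1pr4 and Eno3. Some of these were only just past the 1.5-fold cut at like depth. Cd74 had log2 ratios of 0.59 and 0.61 in the control and 96 h libraries, and RT1-Da 0.59 at 96 h. Gadd45a stood at -0.59 in the control library and S1pr4 at -0.59 at 96 h. Id3, a transcription regulator that blocks basic helix-loop-helix factors, had log2 ratios of 2.26, 2.96, 1.55 and 1.56 against like-depth cells.

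Class II genes stood higher in members of each library. Of the 15 genes of the list, 10, 9, 8 and 9 were measured in the 4 libraries, and 7, 6, 6 and 6 of them were higher than in all other monocytes and 0 lower, with median log2 ratios of 1.88, 2.90, 2.39 and 1.5 beside -0.18, -0.09, -0.10 and -0.13 over all genes compared. Against like-depth monocytes 5 of 7, 6 of 6, 6 of 8 and 2 of 7 were higher, with medians of 0.76, 2.37, 1.32 and 0.46. At 96 h the difference was small once depth was matched.

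RT1-Da, the alpha chain of a class II molecule under its rat name, stood at 5116, 2723, 1388 and 2886 CPM in members. In the other monocytes it stood at 958, 302, 232 and 730 CPM, and in those of like depth at 2775, 447, 458 and 1923 CPM. Members were above both references in each library, by 5.34 (5.16-5.52), 9.02 (8.61-9.44), 5.98 (5.78-6.19) and 3.96 (3.79-4.13) times all others and by 1.84 (1.76-1.94), 6.09 (5.52-6.74), 3.03 (2.89-3.18) and 1.5 (1.42-1.59) times those of like depth.

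Its partner chain RT1-Db1 stood at 2806, 1541, 655 and 1340 CPM in members and at 1433, 264, 251 and 1118 CPM in like-depth cells. The second pair, RT1-Ba and RT1-Bb, gave like-depth ratios of 1.70, 4.6, 2.38 and 1.16 and of 2.55, 17.6, 3.91 and 1.38. At 96 h the ratios of RT1-Db1, RT1-Ba and RT1-Bb to like-depth cells were under 1.5. Cd74, the invariant chain that guides class II molecules through the cell, stood at 7383, 3797, 2194 and 4701 CPM in members against 4913, 1052, 801 and 3079 CPM at like depth. Ciita, the master regulator of class II transcription, was scarce, with 26.6, 15.6, 14.6 and 18.0 CPM in members and 20, 3.89, 6.41 and 13 CPM at like depth.

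**Figure D2:**
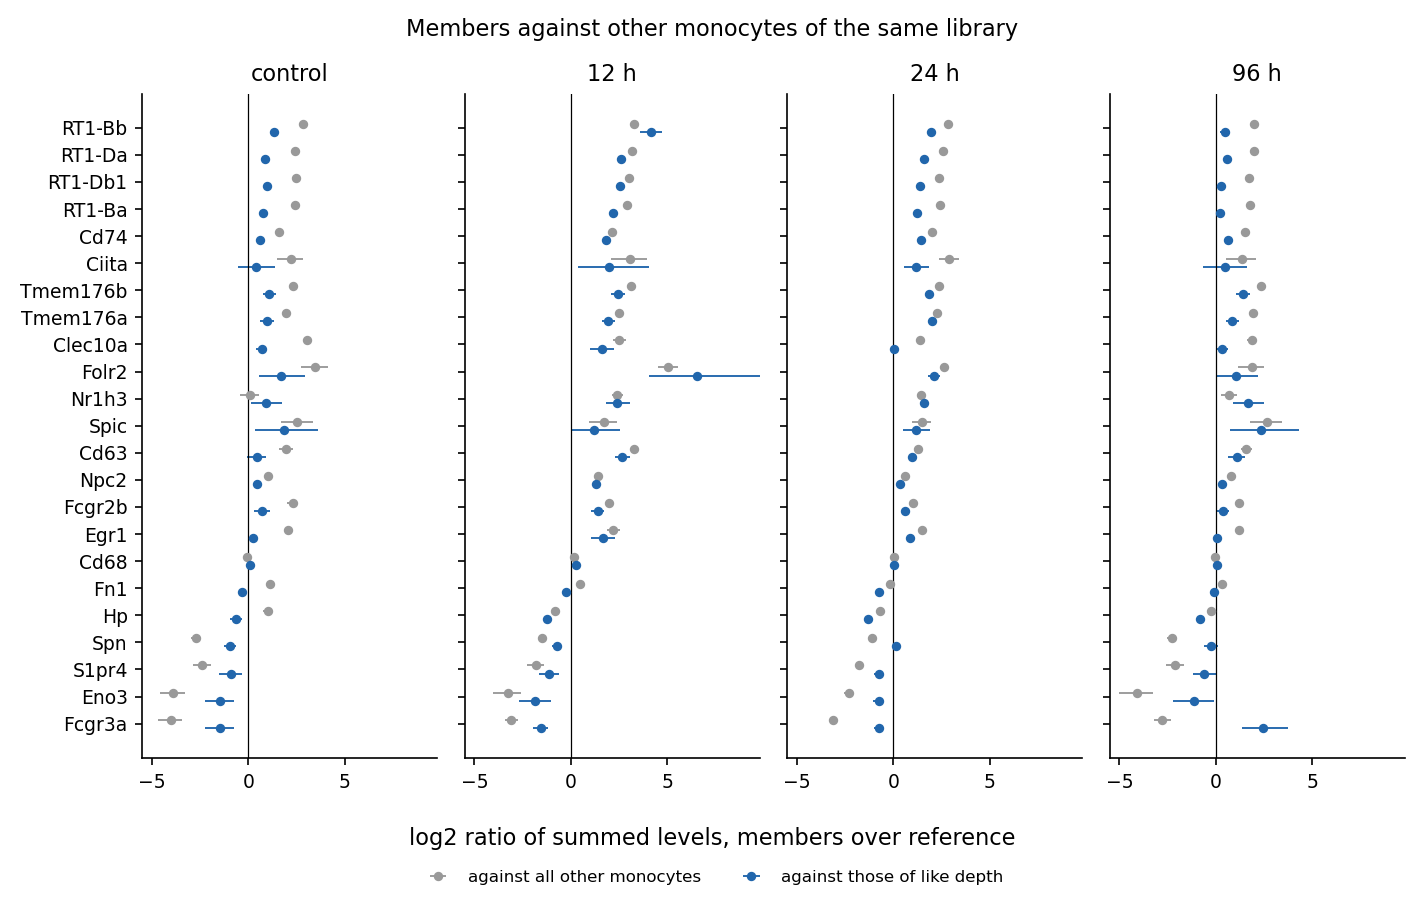
Log2 ratio of summed levels in members over all other monocytes of the same library (grey) and over those of like depth (blue) for genes chosen for their role; lines are 95% intervals for counting error, and the upper end for Folr2 at 12 h runs past the axis. Class II genes and Tmem176b lie right of 0 against both references, while Fcgr3a lies left of 0 except at 96 h at like depth.

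The class II difference was carried by some members, not by all of them. After thinning each cell to 3000 UMIs, the 5 genes RT1-Da, RT1-Db1, RT1-Ba, RT1-Bb and Cd74 together had a median of 42, 4, 1 and 9 UMIs in members, against 10.5, 1, 0 and 2 at like depth. Members with at least 10 such UMIs made up 67.7% (57.4-76.9%), 43.6% (33.7-53.8%), 27.9% (23.4-32.6%) and 49.5% (38.9-60.0%), while 16.7%, 45.5%, 57.5% and 31.2% had 2 or fewer. At like depth 52.1%, 15.8%, 8.85% and 25.8% had at least 10. At 24 h most members were low in class II, and 107 of 384 had at least 10 of these UMIs.

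**Figure D3:**
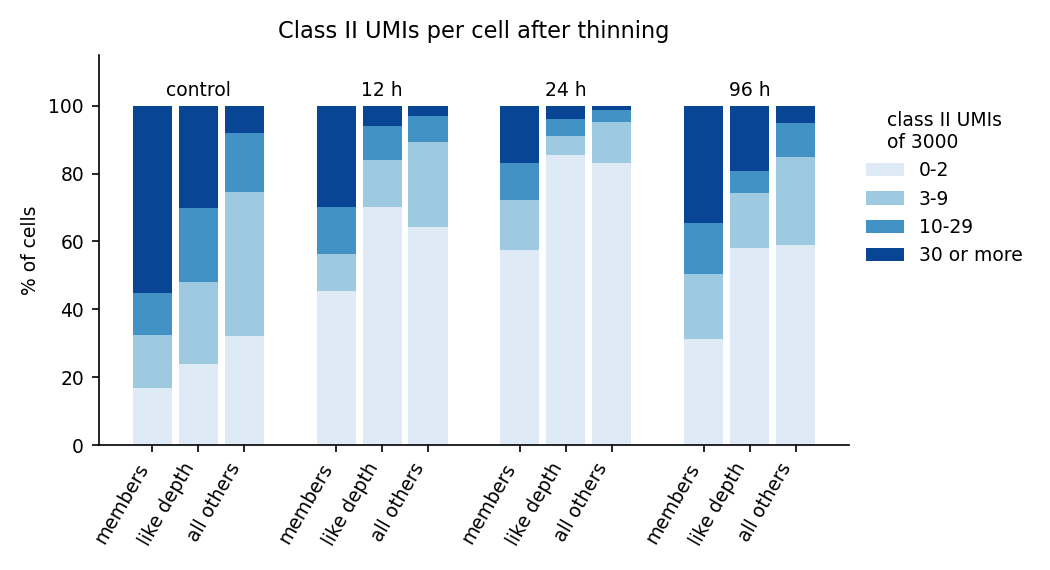
Share of cells (%) by UMIs of 5 class II genes after thinning to 3000 UMIs, in members, monocytes of like depth and all other monocytes of each library. The darkest part, 30 UMIs or more, is larger in members than in both references in each library, and the 0-2 part is largest in the 24 h library.

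Splitting the members by class II, a split chosen after the values were seen, gave cells that differed in other genes. The medians were 9442, 8963, 13164 and 10252 UMIs in the members with at least 10 class II UMIs and 9704, 9786, 11796 and 10334 UMIs in those with 2 or fewer, so the former were somewhat deeper at 24 h and shallower in the other libraries. Tmem176b was 5.94, 11.5, 5.53 and 4.12 times as high in the class II-high members, and Clec10a, a galactose-type lectin of dendritic cells and macrophages, 3.01, 10.9, 4.22 and 2.04 times. Fn1, fibronectin, stood at 0.319, 0.400, 0.421 and 0.430 times and Hp, haptoglobin, at 0.164, 0.0498, 0.414 and 0.216 times, both being abundant in classical monocytes. Gpnmb itself stood at 1.22, 1.64, 1.19 and 1.45 times. Apoe stood at 0.80, 0.478, 5.28 and 1.65 times, in no common direction.

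Tmem176b and Tmem176a, neighbouring genes for membrane proteins of dendritic cells and macrophages, ranked first among the named genes above all other monocytes. The rank is by the interval bound nearest 1 in the worst library, with a minimum level and levels above those of B-like and T-like cells, and genes outside these limits such as Id3 had larger ratios. Tmem176b stood at 294, 395, 177 and 265 CPM in members, at 59.3, 46.2, 34.7 and 51.8 CPM in all others and at 138, 72.0, 49.8 and 100.3 CPM at like depth. The ratio to like-depth cells was 2.14 (1.72-2.67), 5.49 (4.28-7.13), 3.56 (3.09-4.13) and 2.65 (2.09-3.36), above 1.5 in each library. Tmem176a stood at 216, 383, 217 and 199 CPM against 111, 99.3, 53.5 and 110 CPM. The pair was often found in the same cells: in thinned members that held Tmem176b, 52.3%, 68.2%, 58.5% and 59.5% also held Tmem176a, against 23.1%, 19.3%, 18.0% and 16.1% of those without it.

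The other genes ranked highest against all other monocytes were nearer to like-depth cells, and at 12 h those given here still stood at more than 2 times these cells. Egr1 stood at 4.13, 4.64, 2.83 and 2.29 times all others and at 1.19, 3.13, 1.81 and 1.04 times like-depth cells, and Fos, another immediate early gene, at 1.81, 2.14, 1.53 and 1.68 times and 1.11, 2.13, 1.15 and 1.07 times. Gsn, the actin-severing protein gelsolin, stood at 2.20, 2.45, 2.42 and 1.17 times like-depth cells and Cfd, complement factor D, at 1.46, 2.23, 1.01 and 1.04 times. Clec10a stood at 308, 94.5, 200.5 and 196 CPM in members and at 190, 31.2, 199 and 156 CPM at like depth, and at 12 h 1 member held 38.1% of its UMIs. Among the genes ranked highest at like depth, Tgfbi, an extracellular matrix protein of monocytes, gave ratios of 1.37, 2.18, 1.54 and 1.69.

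Genes of phagocytosis and the uptake of dying cells stood higher in part. Of the 26 genes of this list, 13, 14, 14 and 13 were measured and 6, 9, 8 and 4 were above all other monocytes (2, 0, 1 and 1 below), with medians of 0.95, 1.57, 0.67 and 0.31. At like depth 2 of 7, 7 of 10, 4 of 14 and 3 of 7 were higher, beside 2.08%, 4.66%, 3.05% and 2.35% of all genes compared. Folr2, a folate receptor of resident-type macrophages, stood at 32.1, 92.5, 99.9 and 25 CPM in members against 2.97, 2.79, 15.9 and 6.92 CPM in all other monocytes. It was found in 19 of 96, 34 of 102, 189 of 385 and 15 of 93 members and in 7, 1, 76 and 10 like-depth cells, so the 12 h ratio at like depth rests on a single UMI in the reference and is not given.

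Mrc1, the mannose receptor, stood at 15.5, 65.2, 24.9 and 12.0 CPM, above all other monocytes in each library but above those of like depth at 12 h only (6.09, 3.20-12.8). Fcgr2b, the inhibitory Fc receptor, stood at 150, 242, 389 and 202 CPM against 91.1, 92.5, 253 and 156 CPM. C1qc was called at 12 h, where 2 cells carried most of it.

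Lysosomal and lipid genes gave a mixed picture. Of the 32 genes of the list, 27, 28, 29 and 27 were measured, and 10, 13, 8 and 8 were higher and 6, 1, 2 and 4 lower than in all other monocytes. At like depth 1 of 25, 10 of 26, 5 of 28 and 5 of 26 were higher, beside 2.08%, 4.66%, 3.05% and 2.35% of all genes compared. The control count was near that share. Cd63, a tetraspanin of late endosomes, stood at 95.2, 381, 236 and 133 CPM in members against 70.0, 60.4, 119 and 63.2 CPM at like depth, and the members of 12 h stood furthest from their reference, at 6.31 (4.82-8.39) times. Npc2, which moves cholesterol out of lysosomes, gave ratios of 1.35, 2.5, 1.29 and 1.26. Ctsk was called at 12 h with 51 UMIs, of which 1 member held all but a few.

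Nr1h3, the liver X receptor alpha that turns on cholesterol efflux genes, stood at 44.3, 140, 152 and 57.1 CPM in members against 23.3, 26.3, 50.2 and 18.0 CPM at like depth. Members were above these cells by 1.90, 5.33, 3.03 and 3.16 times, and not above all other monocytes in the control library (1.05). Of the 16 genes of cholesterol efflux and liver X receptor targets, 2 of 10, 3 of 10, 3 of 13 and 2 of 9 were higher at like depth and 0 lower. Spic, a transcription factor of iron-recycling macrophages, stood at 19.9, 20.4, 11.7 and 20 CPM against 5.55, 8.76, 5.17 and 4.01 CPM, which is 18, 21, 57 and 20 UMIs in members. Trem2, a lipid-sensing receptor, had 10, 8, 79 and 56 UMIs in members and stood at 11.1, 7.79, 16.2 and 56.1 CPM.

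Genes of nonclassical monocytes stood lower than in all other monocytes, and less so at like depth. Of 7 measured genes of this list 7, 7, 3 and 7 were below all other monocytes and 0 above, with medians of -2.67, -1.04, -0.58 and -1.21. Nonclassical monocytes are shallow cells, and at like depth 6, 3, 2 and 1 were lower, with medians of -0.93, -0.41, 0.15 and 0.26. The 8 markers of these cells named in the files summed to 3525, 3513, 4978 and 3871 CPM in members. The sum was 9002, 5558, 6864 and 6985 CPM in all other monocytes and 4573, 3498, 4719 and 3526 CPM at like depth. At like depth it was thus lower in members of the control library only. Fcgr3a, the Fc receptor that marks nonclassical monocytes, stood at 24.4, 70.1, 50 and 44.1 CPM in members against 393, 593, 444 and 300.0 CPM in all other monocytes. At like depth its ratio was 0.359, 0.338, 0.593 and, at 96 h, 5.49, where 1 member held 45.5% of the 44 UMIs and like-depth cells stood at 8.02 CPM.

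Eno3, a muscle-type enolase high in nonclassical monocytes, stood at 24.4, 16.6, 32.1 and 12.0 CPM in members against 67.8, 59.4, 54.6 and 26.1 CPM at like depth. S1pr4, a receptor for sphingosine 1-phosphate, stood at 44.3, 44.8, 50.6 and 44.1 CPM against 83.3, 96.4, 85.8 and 66.2 CPM. Both were lower in members of each library against both references. Spn, the sialophorin CD43 of nonclassical monocytes, stood at 0.153, 0.361, 0.461 and 0.205 times all other monocytes and at 0.524, 0.602, 1.11 and 0.842 times like-depth cells. RT1-A1, a class I heavy chain under its rat name, stood at 0.303, 0.434, 0.454 and 0.366 times all others and at 0.715, 0.761, 0.944 and 0.978 times those of like depth. For both genes the distance was smaller at like depth in each library.

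Genes of classical monocytes did not set the members apart in the same way. Fn1 stood at 1756, 1753, 1812 and 2431 CPM in members against 2216, 2069, 2983 and 2577 CPM at like depth, a ratio of 0.793, 0.847, 0.607 and 0.943. Hp, at 169, 225, 209 and 268 CPM, was below like-depth cells in each library, by 0.643, 0.429, 0.401 and 0.564 times. In the control library Hp was 2.0 times the level of all other monocytes, so its direction there depends on the reference.

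To place the members among the monocytes, 2 reference groups were drawn from the others after the values were seen. Classical-type cells held at least 5 UMIs of Fn1 and Vcan and 0 of Fcgr3a (461, 735, 1437 and 646 cells), and nonclassical-type cells held at least 3 UMIs of Fcgr3a (726, 1068, 1186 and 378 cells). RT1-Da stood at 1435, 188, 122 and 521 CPM in the former and at 276, 137, 78.9 and 223 CPM in the latter. Fn1 stood at 3089, 2444, 3410 and 3618 CPM and at 178, 367, 388 and 149 CPM, so members lay between the groups in Fn1 and above both groups in RT1-Da. Fn1 and Fcgr3a chose these groups, and their levels there are a description.

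Levels were higher at 10 or more marker UMIs than at 0 in the genes given here, without a steady step from bin to bin. The bins count genes of the rule, and depth differs between them. RT1-Da in monocytes with 0, 2, 3-4 and 10 or more marker UMIs stood at 792, 4133, 5569 and 5357 CPM in the control library, at 290, 375, 1690 and 5068 CPM at 12 h, at 199, 536, 741 and 2483 CPM at 24 h and at 586, 2280, 1809 and 5681 CPM at 96 h. Cells just outside the rule, with 2 marker UMIs, already stood above those with 0 in each library, by least at 12 h. In the control library RT1-Da was 4483 CPM at 5-9 marker UMIs, below its level at 3-4, and at 96 h it was lower at 3-4 than at 2. Tmem176b in the same bins stood at 51.0, 276, 254 and 419 CPM, at 41.6, 106, 212 and 805 CPM, at 27.8, 70.6, 104 and 291 CPM and at 37.1, 174, 196 and 460 CPM. Cd63 at 12 h went from 33.4 CPM at 0 marker UMIs to 1143 CPM at 10 or more.

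**Figure D4:**
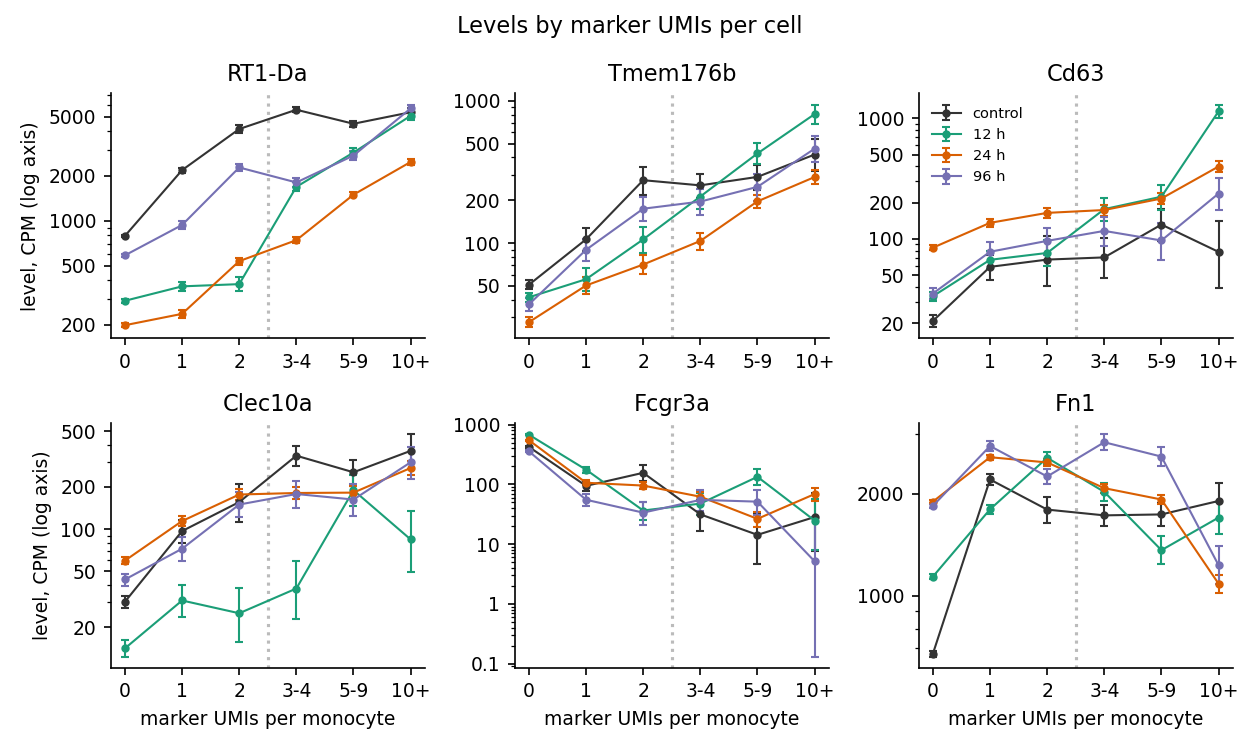
Level in CPM (log axes) of 6 genes by the number of marker UMIs per monocyte in each library; bars are 95% intervals for counting error and the dotted line is the cut between 2 and 3 marker UMIs. Tmem176b is higher in the bin of 10 or more than in the bin of 0 in each library, and depth also differs between bins.

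Members that held at least 3 Apoe UMIs were compared with those that held at least 3 Gpnmb UMIs and no Apoe or C1q, in the 3 libraries with at least 20 of each (31 against 51 in the control library, 54 against 302 at 24 h, 26 against 57 at 96 h). The Apoe cells were somewhat deeper, with medians of 10141 against 8612, 13492 against 11978 and 11298 against 9694 UMIs. Of the genes compared 2.90%, 5.26% and 3.20% were higher and 4.30%, 6.37% and 4.81% lower in the Apoe cells. Slc25a4, a mitochondrial ADP/ATP carrier, was 2.42 (1.66-3.58), 2.15 (1.80-2.57) and 2.01 (1.42-2.86) times as high in the Apoe cells. Mgst2 was 1.5, 2.90 and 1.66 times and Fgl2 1.77, 2.18 and 1.5 times as high, and the lipid receptor Trem2 stood at 48.4 against 9.04 CPM at 24 h and at 112 against 22.5 CPM at 96 h.

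Gngt2, a G protein subunit that is high in nonclassical monocytes, stood at 284 against 904 CPM, 809 against 2219 CPM and 394 against 931 CPM, lower in the Apoe cells of each of the 3 libraries. Marcks (0.226, 0.435 and 0.269), P2ry10 (0.290, 0.217 and 0.313), Nfkbia (0.467, 0.598 and 0.356) and Napsa (0.558, 0.481 and 0.571) were lower too. Of the iron and haem genes, 4 of 6, 5 of 9 and 3 of 8 were lower in the Apoe cells and 0 higher. Hmox1, haem oxygenase, stood at 51.7 against 146 CPM, 43.1 against 148 CPM and 51.2 against 67.6 CPM. In the control and 24 h libraries a single member held a large part of the members' Hmox1 UMIs, as given in the last section. Which side of the split that cell fell on is not given.

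Members of each later library were then compared with control members, with the same ratio in the other monocytes beside it. The 3 comparisons share the control members. At 12 h 13% of genes were higher and 5.28% lower, at 24 h 6.78% and 7.34%, and at 96 h 3.29% and 2.71%. Under median-of-ratios scaling the higher genes made up 48.4% of those apart at 12 h in place of 71.1%, and 42.6% at 96 h in place of 54.8%. In the other monocytes 12.3% and 6.99%, 6.68% and 13.2%, and 5.62% and 4.86% of genes were higher and lower, with the larger sums of more cells.

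Class II genes stood lower in members of each later library. Of 7 measured genes 6, 7 and 5 were lower and 0 higher at 12 h, 24 h and 96 h, with median log2 ratios of -0.96, -1.88 and -0.83. In the other monocytes 10, 10 and 2 of 10 were lower, with medians of -1.61, -1.94 and -0.36. RT1-Da stood at 0.532 (0.508-0.558), 0.271 (0.261-0.282) and 0.564 (0.538-0.591) times the control level in members and at 0.315, 0.242 and 0.761 times in the others. The ratio of RT1-Bb was 0.259, 0.157 and 0.214 in members and 0.189, 0.155 and 0.378 in the others.

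NF-kB feedback genes, a list of inhibitors, subunits and other targets of this inflammatory transcription factor, stood higher in members at 24 h. Of 12 measured genes 10 were higher and 0 lower, with a median log2 ratio of 1.57, against 3 of 12 and a median of 0.35 in the other monocytes. At 12 h 2 of 7 and at 96 h 0 of 7 were higher in members. Nfkbia, the inhibitor that holds NF-kB in the cytoplasm, stood at 524, 1032, 1697 and 456 CPM in members and at 2337, 1363, 2037 and 1381 CPM in the other monocytes of the 4 libraries. The 24 h ratio was 3.24 (2.95-3.57) in members and 0.872 in the others. Sod2, mitochondrial superoxide dismutase, stood at 267, 586, 1584 and 287 CPM in members and at 857, 879, 1591 and 702 CPM in the others.

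Members were below the other monocytes in these genes in the control library and close to them at 24 h. At like depth Nfkbia stood at 935, 820, 1435 and 409 CPM and Sod2 at 412, 696, 1504 and 354 CPM. These were nearer to the members than all other monocytes were, except for Sod2 at 24 h, where all 3 groups were close. In the control library 8 of 11 measured feedback genes were lower in members than in all others (median -1.60), and 2 of 7 at like depth (-0.31), so depth moved with this difference. At 24 h 0 of 12 stood apart in either direction against both references. The cause of the difference was not tested.

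**Figure D5:**
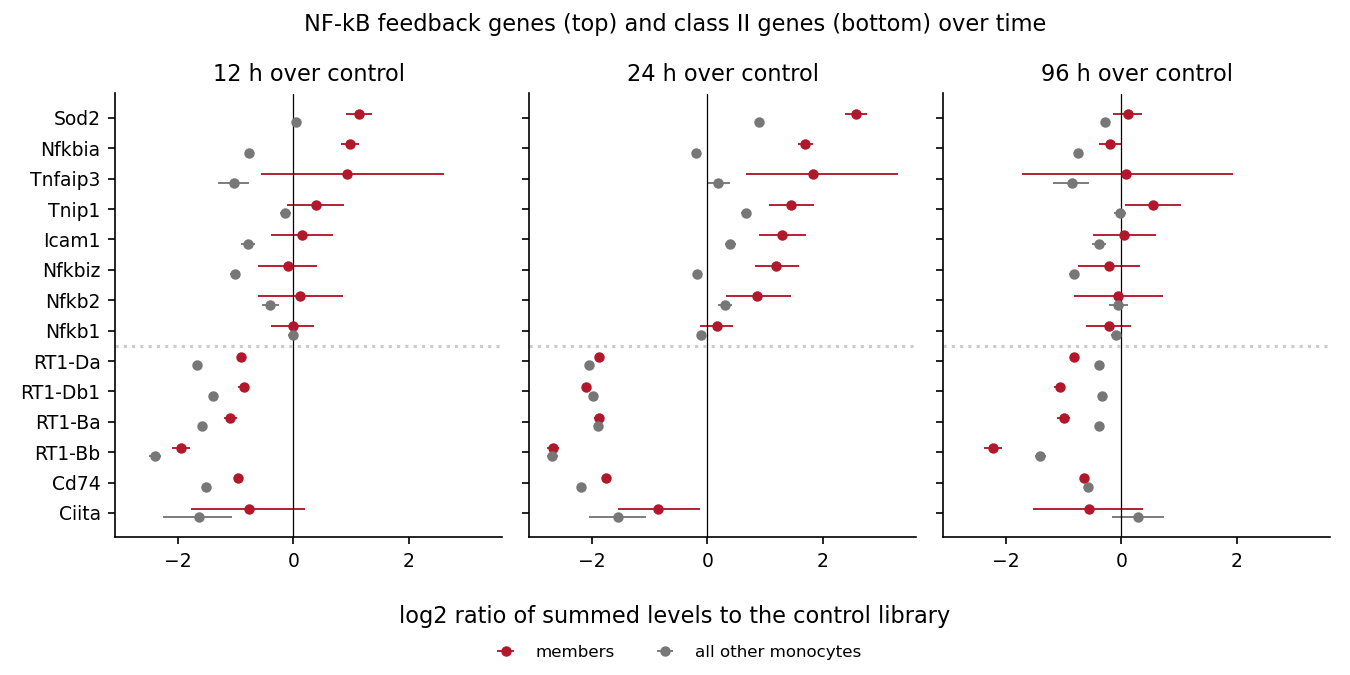
Log2 ratio of summed levels in each later library over the control library, for members (red) and all other monocytes (grey); lines are 95% intervals for counting error. At 24 h Nfkbia is at 3.24 times the control level in members and 0.872 times in the others, while class II genes lie left of 0 in both.

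Inflammatory mediators were higher in members of the 24 h library too. Of 11 measured genes 7 were higher and 1 lower in members at 24 h, with a median of 1.34, beside 7 higher and 2 lower of 13 in the others (0.65). Il1b, the cytokine interleukin-1 beta, stood at 116, 221, 526 and 135 CPM in members and at 182, 109, 482 and 158 CPM in the others. Cxcl2, a neutrophil chemoattractant, stood at 47.6, 211, 336 and 79.1 CPM in members and 22.8, 40.8, 170 and 17.6 CPM in the others. Acod1, which makes itaconate in activated macrophages, had 0 UMIs in control members and stood at 50.6 CPM at 24 h, at least 15.2-fold higher against a floor of 3 counts over the control members, while the others went from 1.22 to 45.6 CPM. Ccl2, the monocyte chemoattractant, went the other way, from 34.3 CPM in control members to 1.95, 2.67 and 10.0 CPM. It was lower in the others too, at 0.124, 0.129 and 0.362 times their control level, beside 0.0568, 0.0779 and 0.292 times in members.

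The genes named by rank at 12 h were led by Upp1, uridine phosphorylase, at 242 CPM against 13.3 CPM in control members, a ratio of 18.2 (10.2-35.7) beside 5.29 in the others. Upp1 stayed among the highest at 24 h (14.7 beside 6.33) and at 96 h (5.65 beside 2.98). Ifitm1, an interferon-inducible membrane protein, stood at 1219 against 152 CPM at 12 h, 8.04 times, beside 1.51 times in the others. Slpi, a protease inhibitor, and Msr1, the scavenger receptor A, stood at 7.64 and 10.2 times at 12 h, beside 5.59 and 13 times in the others.

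G0s2, an inhibitor of triglyceride breakdown, went in opposite directions in members and in all other monocytes. It stood at 47.6, 395, 232 and 114 CPM in members and at 1177, 624, 566 and 848 CPM in the others, so control members were far below the other monocytes and the gap was smaller later. Like-depth monocytes stood at 224, 377, 243 and 62.2 CPM, much nearer to the members, and like the members they were higher at 12 h than in the control library. The ratio of the ratios at 12 h, with all other monocytes as the reference, was 15.7 (11.4-21.5). Rnase2, a secreted ribonuclease, did the reverse at 12 h, at 84.1 CPM in control members and 9.74 CPM at 12 h, while the others went from 27.5 to 50.8 CPM.

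Lipid and lysosome genes stood higher in members at 12 h and 24 h, with 12 of 26 and 10 of 28 measured genes higher and 1 lower each time (medians 0.62 and 0.41, beside 0.16 and 0.00 over all genes), and 3 of 26 higher at 96 h. Cd9, a tetraspanin, stood at 8.85, 63.3, 36.6 and 21.0 CPM in members and at 92.2, 75.3, 69.9 and 54.0 CPM in the others. Plin2, which coats lipid droplets, stood at 50.9, 140, 117 and 69.1 CPM in members and 170, 183, 160 and 123 CPM in the others. Lipa, the lysosomal acid lipase, stood at 94.1, 194, 184 and 132 CPM in members and 268, 220, 217 and 203 CPM in the others. In each of these 3 genes members were lowest in the control library, while the others were not. The others are shallower cells, and like-depth levels of these genes are not given here. The part of depth in this pattern was not tested. Counts of this list in the others are not given either, so it is not shown to be particular to members. Not all genes of the list followed this pattern. At 24 h Cd63 stood at 2.48 times the control level in members and 4.02 times in the others, and Lgals3 at 1.25 and 2.16 times. At 12 h Cd63 stood at 4 times in members and 1.59 times in the others, and Lgals3 at 1.385 and 1.839 times.

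Nr1h3 and its target Abca1, the cholesterol exporter, were higher at 12 h and 24 h. Nr1h3 stood at 3.17 (2.22-4.62) and 3.43 (2.5-4.84) times the control level in members and at 0.622 and 1.32 times in the others. Abca1 rested on few UMIs, at 3.32 CPM in control members and 24.3 and 29.6 CPM at 12 h and 24 h, and in the others it was 2.35 and 4.94 times the control level. The ratios of the ratios, 3.12 (0.897-10.9) and 1.80 (0.551-5.90), did not leave out 1. Folr2 stood at 2.88 and 3.11 times at 12 h and 24 h and at 0.780 (0.438-1.38) times at 96 h, beside 0.941, 5.37 and 2.33 times in the others.

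At 24 h the genes named by rank also held Mt2A, a metallothionein, at 130 against 3.32 CPM (39.1, 13.3-190, beside 10.2 in the others), Fkbp5, a glucocorticoid-induced chaperone, at 118 against 9.96 CPM (11.9 beside 10.9) and Ehd1 (8.62 beside 4.19). Interferon-induced genes were lower in members at 24 h in 10 of 15 measured genes and higher in 1, beside 15 of 17 lower and 1 higher in the others. Mx1, an antiviral GTPase, stood at 48.7, 54.5, 4.11 and 29 CPM in members and 97.0, 85.0, 8.38 and 102 CPM in the others. Immediate early genes were lower at 12 h in 9 of 12 measured genes in members (1 higher) and in 10 of 14 in the others (0 higher). Egr1, an early growth response factor, stood at 521, 94.5, 199 and 484 CPM in members and 126, 20.4, 70.4 and 211 CPM in the others.

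At 96 h the members had few genes away from their control level. Trem2 stood at 56.1 against 11.1 CPM, 5.07 (2.56-11.1) times, beside 3.28 times in the others, and was found in 28 of 93 members against 7 of 96 in the control library. Mrpl43 (4.10), Ca5b (3.36) and Lrg1 (2.25) completed the genes named as higher, beside 2.26, 3.53 and 1.94 times in the others. Ccl5, which T cells and NK cells make, stood at 22.0 against 121 CPM, yet 1 control member held 74.3% of its UMIs.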

How the data were processed

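The files deposited by the authors hold raw UMI counts per gene and cell, and the submitters' processing notes name Cell Ranger, Seurat and the mm10 build, with versions and filters not given in the sources used here. In these files the shallowest deposited cell had 301 genes and the highest mitochondrial share was 14.99%. The members and the gene lists were chosen with earlier results of these data known. UMIs were summed over cells, scaled to CPM and compared as ratios with exact conditional binomial intervals at 95%, for genes with at least 20 UMIs over both sums. A gene was called apart at 1.5-fold with an interval that left out 1, and a sum at 0 was set to 3 counts. Like-depth monocytes were matched 1 to 1 on total UMIs. The named genes were the 12 highest and 12 lowest by the interval bound nearest 1, at worst over the libraries, with at least 50 CPM in either sum, above B-like and T-like cells where higher, and the 5 highest and 5 lowest at each time. Genes used by the rule, ribosomal, haemoglobin, immunoglobulin and T cell receptor genes and unnamed gene models were left out, and genes taken up for their role come from the lists. Id3, Ptgir, Gadd45a and the splits by class II, by Apoe and by Fn1, Vcan and Fcgr3a were chosen after the values were seen. A planned comparison of members led by C1q was not made, since 9 cells are too few. The steps were tested on simulated Poisson counts with known ratios. These counts hold no variation between cells, so they cannot show how uneven cells move the calls. Doublets marked by Scrublet were kept and removed as an alternative. Python 3.11.15, numpy 2.4.6, scipy 1.17.1, pandas 2.3.3 and scanpy 1.11.5 were used.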

Additional observations from a re-analysis of the deposited data

How the results depend on the processing

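No paired analysis was possible because each group has 1 library. Depth, the group compared with and the threshold moved several values, and the cause was not tested. For the share of members against the control library, the 12 h ratio was 1.72 with Gpnmb alone (an alternative chosen after seeing the data) and 0.924 after thinning to 3000 UMIs with at least 3 marker UMIs. The 24 h ratio was 5.05 with at most 5% mitochondrial UMIs, 4.67 with Gpnmb alone, and 2.23 and 2.06 after thinning with at least 2 and 3 marker UMIs. The 96 h ratio was 1.44 and 1.25 after the same thinnings. Genes apart between members and other monocytes numbered 2124, 1178, 1170 and 1244 in the control, 12 h, 24 h and 96 h libraries, 378, 592, 517 and 339 at like depth, where fewer UMIs were compared, and 4453, 3746, 2858 and 3467 by the fold of mean CPM per cell alone. For members against control members they numbered 1088, 1094 and 343 at 12 h, 24 h and 96 h, 522 at 12 h and 105 at 96 h with at least 100 UMIs, and 1937, 2365 and 1046 by the fold of mean CPM per cell. Of 176 ratios of named genes to other monocytes, 98 kept direction and call at like depth, 55 lost the call, 15 gained it and 8 reversed. The reversed ratios were Hp at 0.643 and Gyg1 at 0.746 in the control library, RT1-CE5 at 1.03 and Spn at 1.11 at 24 h, and Rnaset2 at 0.993, Fcgr3a at 5.49, Pmp22 at 1.37 and Gjb2 at 1.90 at 96 h. List medians that changed sign at like depth were -0.24 for classical monocyte, -0.08 for acute inflammation and -0.14 for extracellular matrix genes in the control library, -0.09 for classical monocyte genes at 12 h, 0.20 for interferon genes at 24 h, and 0.26 for nonclassical monocyte and 0.07 for chemokine receptor genes at 96 h. Direction and call stayed for 174 of the 176 ratios without Scrublet doublets, 168 with at least 5 marker UMIs and 166 with median-of-ratios scaling. Sums of 903519 to 1026950 UMIs over members in the control, 12 h and 96 h libraries limit what can be seen of scarce genes in members.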

Other observations

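Genes of iron and haem handling stood higher in members in part. At like depth 2 of 9 measured genes in the control library, 5 of 9 at 12 h, 2 of 9 at 24 h and 2 of 9 at 96 h were higher and 0 lower. Hmox1, haem oxygenase, stood at 96.3, 172, 124 and 65.1 CPM in members and at 2.28, 2.86, 2.12 and 1.44 times like-depth cells, so its sum was apart at like depth in all libraries but that of 96 h. After thinning to 3000 UMIs it was found in 13.5%, 36.6%, 19.3% and 23.7% of members and in 14.6%, 11.9%, 15.6% and 12.9% of like-depth cells, so in the control and 24 h libraries the shares were close. A single member held 26.4%, 21.5%, 23.1% and 4.62% of the members' UMIs of this gene. Type I interferon genes were below all other monocytes in 11 of 16, 6 of 17, 8 of 15 and 11 of 16 measured genes and above in 0, and at like depth below in 2 of 13, 3 of 15, 0 of 14 and 2 of 13. Ifit3, which binds viral RNA complexes, stood at 0.128, 0.397, 0.221 and 0.133 times all other monocytes and at 0.399, 0.936, 0.995 and 0.557 times those of like depth.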
